A study of Rattus norvegicus with 24 samples.

Results

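Unirradiated rat neurospheres (NSps) given Noggin (group N) were compared directly with those given ascorbic acid (group A). NSps are free-floating spheres grown from neural progenitor cells (NPCs), here isolated from the brain of Sprague Dawley fetuses at embryonic day 15 and kept in serum-free medium with epidermal and fibroblast growth factors. The 8 samples were taken by their labelled treatment from the 24 samples of the series, 4 in N (MO5 to MO8) and 4 in A (MO9 to MO12). Group N received 5 µM Noggin and group A 200 µM ascorbic acid, in doses on days 2 and 3 of culture, and neither group was irradiated. By the authors' results, RNA was taken 7 days after the time at which other groups were irradiated. Their methods describe culture for up to 7 days before analysis and do not say from which day these are counted. The other groups used beside them were the untreated controls (C, MO1 to MO4), NSps that received 1 Gy alone (CGy, MO13, MO14B, MO15 and MO16), and Noggin or ascorbic acid combined with 1 Gy on day 3 (NGy, MO17 to MO20, and AGy, MO21 to MO24). The labels name no agent for C and CGy, while the authors mention a vehicle as the alternative to the agents. The labels do not say whether the 4 samples of a group came from separate animals or cultures, so the p-values measure the spread between these samples, which may be technical.

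Noggin is a secreted protein that binds bone morphogenetic proteins (BMPs) and keeps them from their receptors. BMP signals pass through Smad proteins to genes such as those of the Id family, and in neural progenitors they can favour astrocytes over neurons and oligodendrocytes. Ascorbic acid, vitamin C, is a reducing agent and a cofactor of iron-dependent dioxygenases, among them the hydroxylases that mature collagen, those that mark hypoxia-inducible factors for degradation and the TET enzymes that oxidise methylated cytosine. Both agents therefore have known targets in progenitor cells, but in different pathways. The comparison asks how far the transcriptomes of NSps under these agents lie apart without radiation.

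The genes are listed by Ensembl identifier, and 0 of the 16478 identifiers had a counterpart with a symbol in the reference table used here, so the genes of these pathways and the markers of NPCs and other cell types could not be examined by name. The label of the cells as NPCs was therefore not checked against markers. The genes that changed are described below by number, level and pattern across samples, and 4 of them by identifier. In bulk RNA, fewer cells of a type and less RNA per cell cannot be told apart.

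The values are TPM, transcript levels scaled by transcript length and library total. No read counts accompany them, and sequencing depth is unknown. The listed genes summed to between 615930 and 628348 TPM in the N samples and to between 615330 and 622464 TPM in the A samples. Between 9529 and 9627 genes reached 1 TPM in an N sample, and between 9485 and 9714 in an A sample. On these measures N and A overlapped. Outside these groups, the control sample MO2 stood apart, with 8627 genes at 1 TPM or more, and values of C are given with and without it. The sample titles carry numbers, and every A title has a lower number than every N title. All 4 numbers of CGy and 3 of the 4 of C are also above those of A, and the remaining number of C lies below them. What the numbers record is not given in the sources used here, and the columns could not be tied to single titles, so the treatment and whatever the numbers follow cannot be told apart.

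The samples of N and A were set apart as groups. For each pair of samples, differences in log2(TPM + 1) were squared, averaged across the 9906 genes that had a group mean of 1 TPM or more in N or A, and the root was taken as the distance. The 6 pairs of N samples lay 0.317 to 0.373 apart and the 6 pairs of A samples 0.312 to 0.433 apart, while the 16 pairs of an N with an A sample lay 0.420 to 0.632 apart. The mean distance was 0.523 between groups and 0.376 within them. The difference of 0.147 gave p = 0.0286 in a one-sided exact permutation test over the 8 samples, the smallest p that this design allows.

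The first principal component (PC1) of the 8 samples held 47.7% of the variance and PC2 12.8%. On PC1 the N samples lay at 11.3 (MO5), 20.5 (MO6), 23.7 (MO7) and 25.7 (MO8), and the A samples at -31.7 (MO9), -21.7 (MO10), -12.8 (MO11) and -15.2 (MO12). MO5 was the N sample nearest to A, and MO11 the A sample nearest to N. PC2 ran within group A, with MO9 and MO10 at 12.1 and 12.6 and MO11 and MO12 at -14.1 and -20.0, whereas the N samples lay between -3.59 and 5.89. The median SD of a gene within a group was 0.132 on the log2 scale in N and 0.167 in A.

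**Figure D1:**
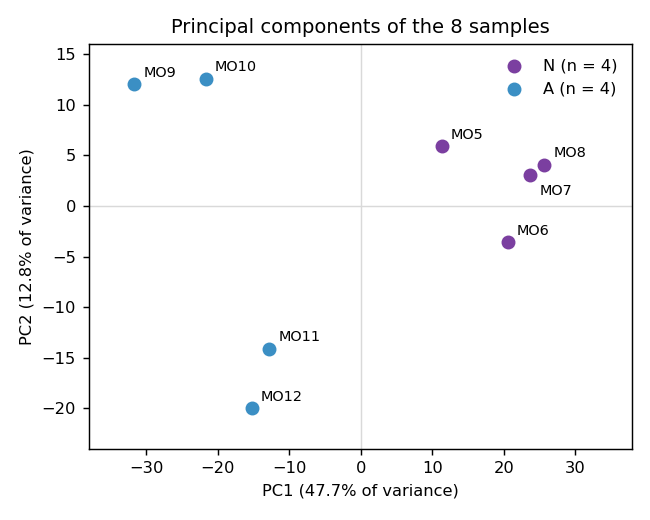
PC1 against PC2 of the 4 N and 4 A samples, computed on log2(TPM + 1) of 9906 genes, centred and not scaled. Each point is a sample, the groups lie on either side of 0 on PC1, and PC2 separates MO9 and MO10 from MO11 and MO12 within A.

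Of the 9906 genes tested, 1000 (10.1%) differed between N and A by at least 1.5-fold with an adjusted p of at most 0.05 (limma, Benjamini-Hochberg adjustment). Of these, 533 (5.38%) were higher in N and 467 (4.71%) were higher in A. The directions were close to even, and the more frequent one turned when MO6 was left out (417 higher in N, 424 higher in A) or MO10 was left out (415 and 479). With each of the 8 samples left out in turn, the count of called genes lay between 720 (without MO8) and 1109 (without MO5). An adjusted p of at most 0.05 without a fold threshold was reached by 2184 genes (22%), 1071 higher in N and 1113 higher in A, and an unadjusted p under 0.05 by 3618 genes (36.5%). The median log2 change over all genes tested was -0.004, and the root mean square difference between the group means was 0.413 on the log2 scale.

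Most of the changes were moderate. Among the 1000 genes, 693 changed by 1.5-fold to less than 2-fold, 293 by 2-fold to less than 4-fold and 14 by 4-fold or more, measured on log2(TPM + 1), where the pseudocount shrinks the change of low genes. Of the 14 genes, 10 were higher in N and 4 were higher in A. The median log2 change was 0.83 for the genes higher in N, whose mean TPM over both groups had a median of 9.51. The genes higher in A had a median change of -0.85 and a median level of 6.44 TPM. The median level of all genes tested was 16.2 TPM. In 922 of the 1000 genes the 4 N samples did not overlap the 4 A samples, against 2711 (27.4%) of all genes tested. The call rule favours genes without overlap.

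The share of genes called fell with the expression level. Below 10 TPM, 559 of 3794 genes were called (14.7%), 269 higher in N and 290 higher in A. From 10 to 100 TPM, 408 of 5223 genes were called (7.81%), and here 249 were higher in N and 159 higher in A. At 100 TPM and above, 33 of 889 genes were called (3.71%), 15 higher in N and 18 higher in A. A change of 1.5-fold at any p was found in 20.2%, 8.48% and 4.05% of the genes at these levels, and the median standard error of the log2 change was 0.155, 0.0993 and 0.0854.

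**Figure D2:**
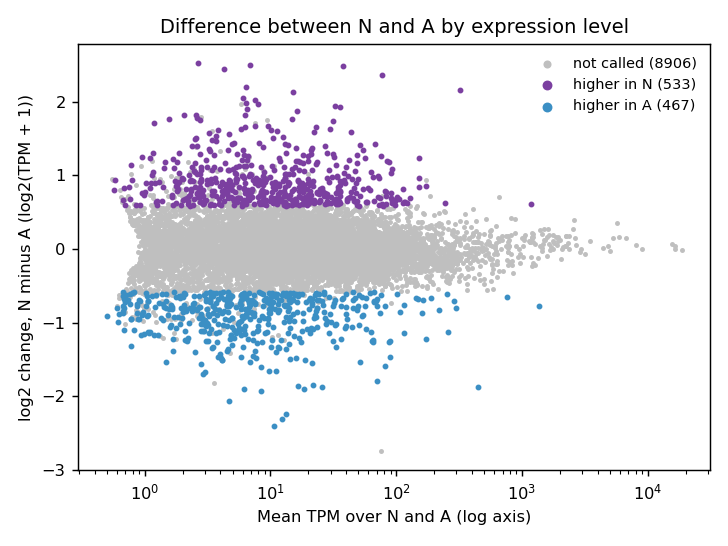
Log2 change of N minus A on log2(TPM + 1) against the mean TPM of both groups (log axis) for 9906 genes. Coloured points are the 533 genes called higher in N and the 467 called higher in A, which spread over the levels below 100 TPM and are few above it.

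The called genes held a small part of the RNA. The 533 genes higher in N made up 2.31% (MO5), 2.66% (MO6), 2.55% (MO7) and 2.64% (MO8) of the listed TPM in N, and 1.10% (MO9), 1.31% (MO10), 1.56% (MO11) and 1.51% (MO12) in A. The 467 genes higher in A made up 2.71% (MO9), 2.28% (MO10), 2.19% (MO11) and 2.30% (MO12) in A, and 1.47% (MO5), 1.28% (MO6), 1.10% (MO7) and 1.08% (MO8) in N. MO9 had the lowest share of the first set and the highest of the second. These sets were chosen on the same samples, so the shares are a description.

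A few of the called genes were listed at 0 in every sample of a group. Of the genes higher in N, 2 were listed at 0 in all 4 A samples. Of the genes higher in A, 2 were listed at 0 in all 4 N samples, and these reached at most 2.07 and 1.82 TPM in A. The file gives no counts, so a value of 0 may be a failed estimate as well as an absent transcript.

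The 4 genes described by identifier are those with the largest differences in each direction among the called genes whose groups did not overlap. The first higher in N was ENSRNOG00000018394, with 2.13, 3.47, 7.26 and 8.36 TPM in MO5 to MO8, and it was listed at 0 in all 4 A samples (adjusted p = 0.00316, limma). All N samples were above all A samples, and no fold change is given against values of 0. In C the gene had 1.11, 1.15, 2.10 and 0 TPM in MO1 to MO4, all below the lowest N sample by a margin that was narrow for MO3. After 1 Gy it had 0.744 to 3.33 TPM in NGy, and it was listed at 0 in 3 of the 4 AGy samples and at 0.904 TPM in MO22. CGy had 0.286 to 2.66 TPM, which overlapped NGy, and MO14B of CGy lay above the lowest N sample.

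ENSRNOG00000036673 had 8.07, 13.7, 12.3 and 15.7 TPM in MO5 to MO8 and 0.709, 1.76, 1.71 and 1.31 TPM in MO9 to MO12. The mean was 12.4 ± 3.24 TPM in N and 1.37 ± 0.488 TPM in A (SD, n = 4 each), so that N was higher by 2.49 ± 0.22 on the log2 scale (standard error; adjusted p = 0.00165, limma). The lowest N sample was above every sample of C, which had 1.61, 2.64, 5.69 and 0.344 TPM in MO1 to MO4. The same pattern was present with radiation, with 10.2 to 14.4 TPM in NGy, 1.24 to 2.95 TPM in AGy and 3.02 to 4.45 TPM in CGy. Of the 4 genes, this is the one in which both Noggin groups lay above all samples of the 4 groups without Noggin.

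ENSRNOG00000007608 had the largest called difference toward A, with 28.8, 12.5, 17.1 and 16.6 TPM in MO9 to MO12 and 3.85, 2.86, 2.48 and 1.53 TPM in MO5 to MO8. The mean was 18.8 ± 7.01 TPM in A and 2.68 ± 0.959 TPM in N (SD, n = 4 each), and N minus A was -2.40 ± 0.26 on the log2 scale (standard error; adjusted p = 0.00259, limma). Among the controls, MO4 had 26.1 TPM, within the range of A, while MO1, MO2 and MO3 had 5.07, 1.36 and 2.87 TPM. In the batch-corrected table of the authors, which leaves out MO2, the controls MO1, MO3 and MO4 had 7.38, 5.70 and 10.3 TPM. All lay below the lowest A sample at 10.6 TPM, by a margin that was narrow for MO4. AGy had 11.6 to 23.2 TPM, and CGy and NGy had 3.85 to 5.20 and 3.83 to 4.46 TPM.

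ENSRNOG00000002244 had 41.5, 16.9, 14.5 and 13.0 TPM in MO9 to MO12 and 5.09, 3.79, 2.25 and 1.91 TPM in MO5 to MO8. The mean was 21.5 ± 13.5 TPM in A and 3.26 ± 1.47 TPM in N (SD, n = 4 each), and N minus A was -2.30 ± 0.37 on the log2 scale (standard error; adjusted p = 0.00582, limma). MO9 lay far above the other A samples, and without it the log2 change was -1.94. The control sample MO4 again lay within the range of A, at 20.3 TPM, with 4.23, 0.597 and 1.55 TPM in MO1, MO2 and MO3. After correction MO4 had 6.17 TPM, below the lowest A sample at 13.5 TPM. In AGy the gene had 7.46 to 22.0 TPM, and in CGy and NGy 1.01 to 3.48 and 1.03 to 3.53 TPM.

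**Figure D3:**
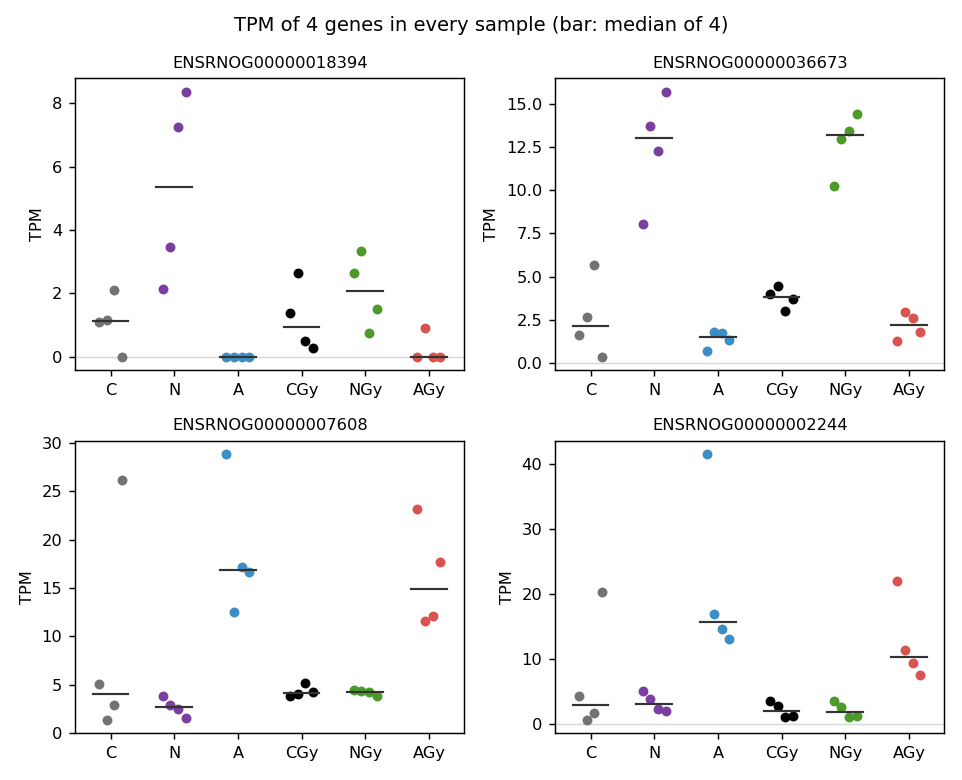
TPM of the 4 genes in all 24 samples by group, with 1 point per sample and a bar at the median of the 4 samples. N lies above A in the upper panels and below A in the lower ones, and in the lower panels the control sample MO4 lies with A and AGy.

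The controls were then placed between the treated groups, since a difference between N and A does not show which of them departed from untreated NSps. The midpoint between the mean of N and the mean of A on log2(TPM + 1) was taken for each of the 1000 called genes, and the genes on the N side were counted in each sample. The N samples had 92.6% to 98.9% of the genes on the N side and the A samples 1.5% to 6.7%, which the choice of the genes fixes. The control samples, which did not enter the choice, had 63.5% (MO1), 51.3% (MO2), 85.1% (MO3) and 12.2% (MO4). In the TPM as deposited, untreated samples thus ranged from near the level of A to near that of N. This spread was not present after the batch correction, where the same genes gave 42.8% for MO1, 54.4% for MO3 and 40.5% for MO4. The correction keeps the group means, and the factor it was run on is not given in the sources used here. MO2 differed between the sets, with 19.1% of the genes higher in N and 88.0% of the genes higher in A on the N side, and was low in both.

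The ranges of single genes gave the same picture. Among the 533 genes higher in N, all 4 N samples lay above all 4 C samples in 169 genes (31.7%), and all 4 A samples lay below all C samples in 12 genes. Among the 467 genes higher in A, all A samples lay above all C samples in 158 genes (33.8%), and all N samples lay below all C samples in 11 genes. Over all genes tested, N lay above C in 6.41%, A above C in 7.62%, A below C in 0.868% and N below C in 1.30%. In 354 genes of the first set (66.4%) and 299 of the second (64.0%), neither group lay outside the range of C, against 84.7% of all genes tested. Without MO2 the numbers were 186 genes with N above C, 164 genes with A above C, 30 genes with A below C and 60 genes with N below C, against 7.61%, 8.69%, 3.76% and 5.23% of all genes tested in the same order. After the correction, N lay above the 3 remaining controls in 433 of the 533 genes (81.2%) and A lay below them in 248 (46.5%), while A lay above them in 330 of the 467 genes (70.7%) and N below them in 214 (45.8%). Over all genes tested, the corrected values put N above C in 19.4%, A below C in 10.1%, A above C in 17.3% and N below C in 10.8%. These counts have no test, since both groups were set against the same controls. The genes were also chosen for their difference between N and A, which favours counts in these directions. The correction keeps the group means and narrows the spread within N and A. The controls MO1, MO3 and MO4 also lay closer together after it in their shares on the N side. Both favour ranges that do not overlap. The higher counts after the correction are therefore a description.

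The median position of the C mean, counted from the A mean at 0% to the N mean at 100%, was 17.0% for the genes higher in N and 83.0% for the genes higher in A. Without MO2 it was 35.2% and 62.0%. On average the controls lay on the lower side in both sets of genes, nearer to A where N was high and nearer to N where A was high. This average covers control samples that differed widely before the correction. The genes had to reach 1 TPM in N or A but not in C, and no position was computed over all genes. Over all genes tested, N lay above all C samples in 6.41% and below them in 1.30%, and A in 7.62% and 0.868%. Without MO2 these shares were 7.61% and 5.23% for N and 8.69% and 3.76% for A. Over all genes tested, too, N and A lay above C more often than below it, by a smaller margin without MO2. Whether C lies lower in the called genes than in other genes was not tested.

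**Figure D4:**
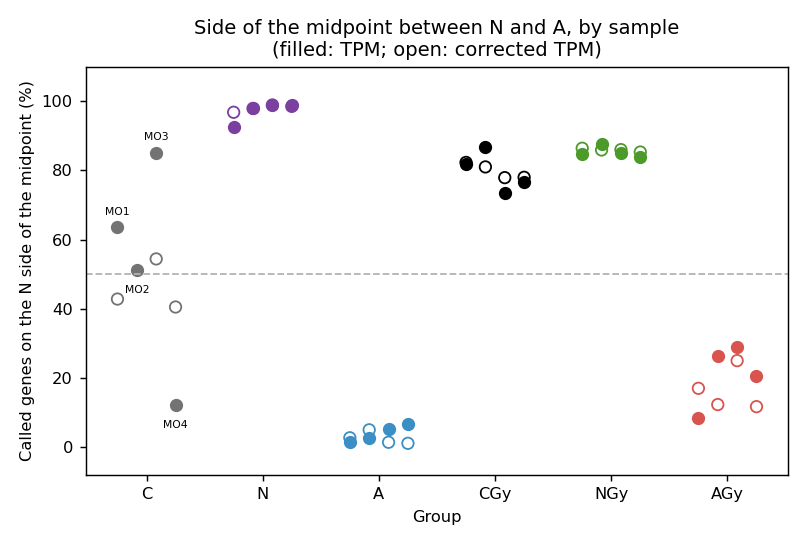
Percent of the 1000 called genes that lie on the N side of the midpoint between N and A, for each of the 24 samples by group, with a dashed line at 50%. Filled points are TPM and open points corrected TPM. N and A are placed by the choice of genes, the 4 C samples spread from 12.2% to 85.1% before the correction and from 40.5% to 54.4% after it, CGy and NGy lie above the line and AGy below it.

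Irradiated samples took sides in the same genes. CGy, which received neither agent, had 73.6% to 86.7% of the 1000 genes on the N side. NGy had 83.8% to 87.6% and AGy 8.4% to 28.8%. After the correction the ranges were 77.9% to 82.3% in CGy, 85.3% to 86.4% in NGy and 11.7% to 25% in AGy. The title numbers of N, CGy and NGy are all above those of A and AGy. For the side taken by CGy, the treatment and whatever the numbers follow therefore cannot be told apart. Over all 9906 genes, the mean distance to the N samples was smaller than that to the A samples for all 4 CGy and all 4 NGy samples, and larger for all 4 AGy samples. Of the C samples, MO1 and MO3 were nearer to N and MO4 was nearer to A, at 0.451 against 0.602. MO2 was far from both, at 1.24. In the corrected table MO1 was nearer to A, at 0.405 against 0.416 from N, and MO4 stayed nearer to A, at 0.361 against 0.390. MO3 stayed nearer to N, at 0.384 against 0.399.

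The difference between Noggin and ascorbic acid was compared with that between NGy and AGy, which share no sample with N and A. Of the 9840 genes tested between NGy and AGy, 882 (8.96%) were called, 375 (3.81%) higher in NGy and 507 (5.15%) higher in AGy. Without MO19 of group NGy the count was 584. Of the 1000 genes called without irradiation, 975 were tested in both, and 98.3% of these had the same sign after 1 Gy, against 77.5% of all 9684 genes tested in both. After 1 Gy, 556 were also called in the same direction and 0 in the opposite direction, which is 55.6% of the genes called without irradiation and 63.0% of those called after it. The title numbers of AGy are also all lower than those of NGy, so here too ascorbic acid and the numbering cannot be told apart.

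The genes higher in N had a median log2 change of 0.83 without irradiation and 0.65 after 1 Gy. The genes higher in A had -0.85 and -0.79. Since the genes were chosen for their change without irradiation, the larger values there are in part given by the choice. Across all 9684 genes tested in both, the log2 changes had a Pearson correlation of 0.772, a description over genes, which are not independent replicates.

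Whether the difference between the pretreatments itself changed with radiation was tested as an interaction in the 16 samples of N, A, NGy and AGy. Of 10062 genes tested, 0 had an adjusted p of at most 0.05 (limma), with a smallest adjusted p of 0.695, and 645 genes (6.41%) had an unadjusted p under 0.05. Among the 1000 called genes, 79 (7.9%) had an unadjusted p under 0.05. These genes, and those given by identifier, were chosen for their change between N and A. That change is a part of the interaction, so the choice favours low p-values in them. For ENSRNOG00000018394 the unadjusted p was 0.0237 and the adjusted p was 0.709 (limma). For ENSRNOG00000036673 the log2 change was 2.49 without and 2.15 with radiation, and their difference was 0.34 ± 0.30 (standard error; adjusted p = 0.866, limma). For ENSRNOG00000007608 and ENSRNOG00000002244 the adjusted p of the interaction was 0.771 and 0.968 (limma). A p that misses the threshold does not show that the difference was equal with and without radiation.

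**Figure D5:**
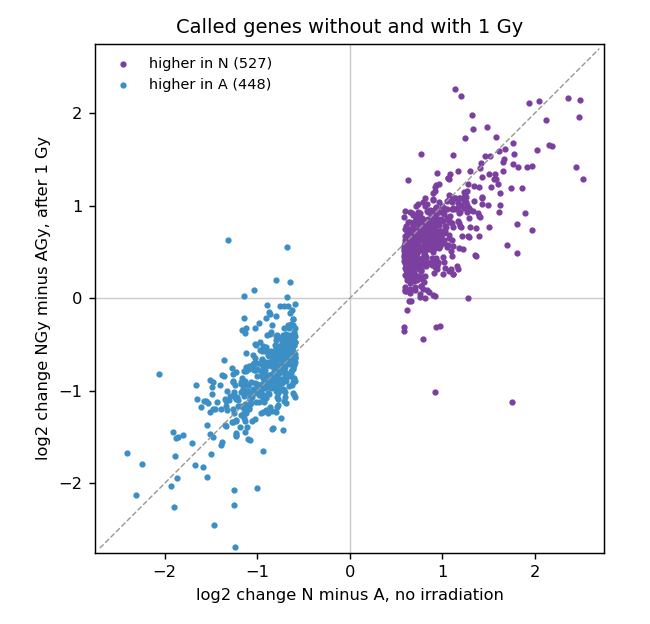
Log2 change of NGy minus AGy after 1 Gy against that of N minus A without irradiation for the 975 called genes tested in both, on log2(TPM + 1), with a dashed line where both are equal. The points lie mainly at the lower left and upper right, where the 98.3% of genes with the same direction are.

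Under the test used here, the batch-corrected table of the authors gave nearly the same result for N against A as the uncorrected TPM. The authors, with their own software, reported far fewer genes for this pair in both directions at these thresholds. With corrected TPM, 1079 of 9901 genes (10.9%) were called, 579 higher in N and 500 higher in A. The genes called in both tables made up 99.4% of the uncorrected and 92.1% of the corrected calls, all in the same direction. Before values below 0 were set to 0, the correction left the means of log2(TPM + 1) in N and A unchanged to within 4e-09, so that the differences between groups were not altered, and it removed 8.52% of the sum of squares within N and 22.4% within A. In ENSRNOG00000002244 it lowered MO9 from 41.5 to 21.2 TPM and raised MO12 from 13.0 to 21.98 TPM. For the interaction with radiation, 24 of 10050 genes (0.239%) were called after the correction, and the smallest adjusted p of these before it was 0.695 (limma).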

How the data were processed

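Samples were grouped by their labelled treatment. The tables carry the study's MO identifiers, whose groups its methods and figures give, so the columns were used as unpaired replicates of their groups. TPM values per gene were made by the authors with Kallisto (version not given in the sources used here), with STAR 2.6.1 named for alignment to rat build Rn7, and a batch-corrected table from NOISeq without MO2. The deposited values of that table are a signal equal to 0.5 times the corrected TPM + 1. They were doubled, 1 was subtracted, and the 6.55% of values below 0 were set to 0.

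From the TPM, log2(TPM + 1) was computed with a pseudocount of 1, and limma 3.58.1 in R 4.3.3 was run on the samples of each pair for genes whose mean reached 1 TPM in one of its groups. Calls required an adjusted p (Benjamini-Hochberg) of at most 0.05 and a 1.5-fold change. The interaction had no fold threshold. Distances were tested by exact permutation. Each test was tested on simulated data first. Figures were drawn with matplotlib 3.10.9. TPM keep no counts, so depth and counting error are unknown, and the only measure of precision was how far samples of a group differed.

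The genes described and the comparison itself were chosen with earlier results of these data known. The rule for genes given by identifier, where no symbols can be paired, was the 2 largest rises and falls without overlap among called genes. The 30 gene lists drawn up by symbol, and sequences of genes, could not be applied. The alternatives were the corrected table, a pseudocount of 0.1, no filter, quantile normalization, TPM rescaled to the same sum, a variance trend, all 6 groups in 1 fit, each sample left out and an adjusted p alone. The positions of C without MO2 and in the corrected table were added after seeing the data.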

Additional observations from a re-analysis of the deposited data

Results flagged for a closer look

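In 4 of 69 sets of 4 samples, the highest or lowest sample stood further from the others than Dixon's 95% critical value allows. Chance flags about 1 set in 20. In group A, MO9 had 41.5 TPM of ENSRNOG00000002244, while MO10, MO11 and MO12 had 13.0 to 16.9 TPM. In group C, MO4 had 26.1 TPM of ENSRNOG00000007608, against 1.36 to 5.07 TPM in MO1, MO2 and MO3. MO2 had 8627 genes at 1 TPM or more, the lowest of the 4 C samples. In AGy, MO22 had 0.904 TPM of ENSRNOG00000018394, which was listed at 0 in the other 3 samples.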

How the results depend on the processing

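The number of genes called between N and A stayed within 1.5 times of 1000 with no filter, a pseudocount of 0.1, the corrected table, a variance trend, quantile-normalized or rescaled TPM and each sample left out (720 to 1109 genes). Beyond that, all 6 groups in 1 fit gave 641 genes, 328 of them higher in N and 313 higher in A. This fit takes its spread from all groups, MO2 included, and it lowered the number of called genes also called between NGy and AGy from 556 to 333. An adjusted p alone gave 2184 genes, 1071 higher in N and 1113 higher in A. The 4 genes given by identifier kept their direction and their call in the alternatives run. With each sample left out, the count between NGy and AGy lay between 584 (without MO19) and 923, and the interaction remained at 0 genes. The corrected table gave 24 genes for the interaction. With each sample left out, the excess of the distance between N and A over that within groups lay between 0.126 and 0.167, and with the corrected table it was 0.168, where no p was computed. The p of the exact permutation test was already the smallest possible and says nothing of stability. Without MO2, a choice made after seeing the data, the median position of C moved from 17.0% to 35.2% for genes higher in N and from 83.0% to 62.0% for genes higher in A. The causes of these shifts were not tested. No paired analysis was possible because the columns carry no replicate numbers. The title numbers run in similar steps in several groups, but the columns could not be tied to single titles. Counts over gene lists were not run, since symbols could not be paired with the identifiers. Depth is unknown for these TPM.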

Other observations

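The largest difference between the means of N and A on the log2 scale, -2.74 (standard error 2.06), belonged to a gene that was not called (adjusted p = 0.374, limma). It was chosen after its values were seen. Its TPM varied within groups from near 0 to over 100, with 0.00420, 0.0308, 13.3 and 117 in the N samples, 0, 94.3, 173 and 209 in the A samples and 0, 85.2, 139 and 173 in the C samples, in rising order. Of the 1244 genes with a change of at least 1.5-fold between N and A, 244 were not called, and in 23 of these the groups did not overlap.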
